A study of Mus musculus with 6 samples.

Results

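Prostaglandins and leukotrienes are short-lived lipid signals made from arachidonic acid, and 10 genes of their synthesis and reception were followed here in injured mouse muscle. The genes were taken by name from the deposited expression table, which held all 10 among 25572 genes. They encode the cyclooxygenases (Ptgs1, Ptgs2), the terminal synthases of PGE2 and prostacyclin (Ptges, Ptgis), lipoxygenases and the leukotriene machinery (Alox5, Alox5ap, Alox15, Ltc4s), and a pair of PGE2 receptors (Ptger2, Ptger4). RNA sequencing was done on hind limb skeletal muscle collected on day 3 after surgery for hind limb ischaemia (HLI), an operation that starves the limb of blood. The groups were 3 Hdc-/- mice (HDCKO), which lack the histamine-forming enzyme histidine decarboxylase, and 3 wild-type mice (WT), with 1 library per mouse. All 6 mice had the ischaemia label, so HDCKO is compared with operated WT muscle, and unoperated muscle was not analysed here. The sources used here do not give the age, sex or strain of the mice, which muscle was taken or how the Hdc allele was made.

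In this pathway, phospholipases free arachidonic acid from membranes. Cyclooxygenases turn it into the unstable prostaglandin H2, which terminal synthases convert to PGE2, prostacyclin, prostaglandin D2 or thromboxane, while the lipoxygenase Alox5, presented with its substrate by Alox5ap, makes leukotriene A4. In injured tissue these lipids dilate vessels, raise their permeability and call in neutrophils, and PGE2 is also known to act on muscle stem cells during repair.

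Values are FPKM, which scale fragments by gene length and by library size, so levels can be set side by side between genes. Libraries held an estimated 29500000 to 37600000 fragments. Hdc itself had 1.22, 2.46 and 2.52 FPKM in the HDCKO libraries (replicates 1, 2 and 3, the order used throughout) and 7.49, 7.72 and 8.17 in the WT libraries. It fell by 1.74 (SE 0.25, limma adjusted p = 0.00334) and was not at 0 in any HDCKO library, and whether its remaining fragments lie outside a deleted part was not tested. Tests used limma on log2(FPKM + 0.5) over the 13288 genes that averaged 0.5 FPKM or more, with p-values adjusted over all of them and a threshold of 0.05. A typical gene had a log2 change of -0.50 (HDCKO minus WT), against which the changes below can be read. Of the calls, 29.5% were higher in HDCKO on the deposited values and 50.6% after median-of-ratios scaling, in which each library is divided by its median ratio to the mean library. Muscle fibre markers were present in all libraries, with a summed level of 49430 to 90580 FPKM in HDCKO and 424 to 1655 in WT. These are whole-tissue values, so fewer cells of a type and less RNA per cell cannot be told apart.

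Of the 10 members, 9 passed the filter on low values and Alox15 did not. Of those 9, 7 fell in HDCKO, 0 rose and 2 did not pass the test, where 42.6% of all genes tested were called lower and 17.8% higher. The median log2 change of the 9 was -1.70, beside -0.50 for all genes tested. Ptgs2 and Ptger2 passed the filter through their WT level alone, so the count and the median describe these genes and support nothing further. The same 7 members were those whose groups did not overlap, which 51.4% of all genes did in that direction and 21.2% in the other.

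Short sequences around the starts of some members are shown for context. The RefSeq promoter table of GRCm38.p6 held 7 members, as windows of 300 bases from 250 before to 50 after the start; Ptgis, Alox5ap and Alox15 were not among them. The motifs searched on both strands began with a loose NF-kappaB pattern, whose inner bases could be any letter. After it came TGACG (the core of a cyclic AMP response element), CACGTG (E-box), TTNNGNAA (C/EBP), TGANTCA (AP-1) and GGGCGG (GC box). The motifs, NF-kappaB first, are held by 20.7%, 20.8%, 7.15%, 40.7%, 7.81% and 35.7% of the 32851 windows in the table, in that order. Sites of 30 bases are given, written 5′ to 3′ on the gene's strand with every match in capitals, for the inducible cyclooxygenase, the inducible PGE2 synthase, the leukotriene-forming lipoxygenase and the receptor that did not pass the test.
Ptgs2, chr1:150100035-150100064, plus strand: tcaccactaCGTCACGTGgagtccgcttta
Ptgs2, chr1:150099951-150099980, plus strand: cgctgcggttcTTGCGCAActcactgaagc
Ptges, chr2:30903322-30903351, minus strand: tGGGCGGggagtGGGCGGgggtgaccgcct
Alox5, chr6:116461212-116461241, minus strand: gtggggtcctGGGACTGGCCagagacagGG
Ptger4, chr15:5244313-5244342, minus strand: cagctctCCGCCCCGCCCtccatcaccggg
The first Ptgs2 site lies just after the table's start and holds CGTCA, that core read on the opposite strand, which overlaps an E-box by 2 bases, and the second holds a C/EBP match that reads alike on both strands. The Ptges window held 2 GC boxes and the Ptger4 window 4. The Alox5 site holds the one match to the loose NF-kappaB pattern among the 7 windows, with the start of a GC box after it. Since that pattern leaves its inner bases free, the match alone does not show an NF-kappaB site. No AP-1 match was present in the 7 windows, and those of Ptgs1 and Ltc4s held 0 matches of any kind. The matches are descriptions of letters in these windows.

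The cyclooxygenases differed most in size of change. Ptgs2, the form induced by injury and cytokines (ENSMUSG00000032487, chr1:149975194-149983978 in GRCm39, plus strand), had 0.192, 0.131 and 0.364 FPKM in the HDCKO libraries, while the WT libraries had 47.8, 21.7 and 21.0. WT replicate 1 stood highest, and every WT library was far above every HDCKO library. Its mean was 30.2 ± 15.3 FPKM in WT (SD, n = 3) and 0.229 ± 0.120 in HDCKO (SD, n = 3), or 0.759% of WT. On the log2(FPKM + 0.5) scale Ptgs2 fell by 5.30 (SE 0.35, limma adjusted p = 2.75e-04), and it ranked 45 from the lowest of 13288 genes. It passed the filter through its WT level alone, so this p and rank describe the gene and support nothing further. The change was damped by the added 0.5 FPKM, an amount above every HDCKO value of Ptgs2. The smallest whole fragment counts that give its 6 FPKM values were 29, 17 and 60 in HDCKO and 6698, 3528 and 3412 in WT, so its low level in HDCKO rests on few fragments. An antisense transcript, Ptgs2os, overlaps the gene and lay between 0.0194 and 0.324 FPKM, and the sources used here do not say whether counting used strand.

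Ptgs1, the constitutive cyclooxygenase of platelets, vessels and resident macrophages (ENSMUSG00000047250, chr2:36120438-36142287, plus strand), had 1.41, 2.51 and 2.63 FPKM in HDCKO and 4.75, 6.81 and 7.77 in WT. The groups did not overlap, but the gap between the highest HDCKO and the lowest WT library was small beside that of Ptgs2. Ptgs1 fell by 1.38 (SE 0.27, limma adjusted p = 0.00876), from 6.45 ± 1.54 to 2.18 ± 0.677 FPKM (SD, n = 3 each). The order of the forms therefore differed between groups. In WT libraries the level of Ptgs2 was 10.1, 3.18 and 2.70 times that of Ptgs1, and in HDCKO libraries it was 0.137, 0.0524 and 0.138 times. The difference in the log2 ratio was -3.92 on values with 0.5 FPKM added, and the groups did not overlap (exact two-sided permutation p = 0.1, adjusted 0.1 over 6 pairs, the smallest that 3 against 3 can give). That difference was -4.93 with 0.1 FPKM added and -3.34 with 1 FPKM added. A plain ratio of FPKM values within a library does not move with library scaling, but a ratio with a fixed amount added can.

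**Figure D1:**
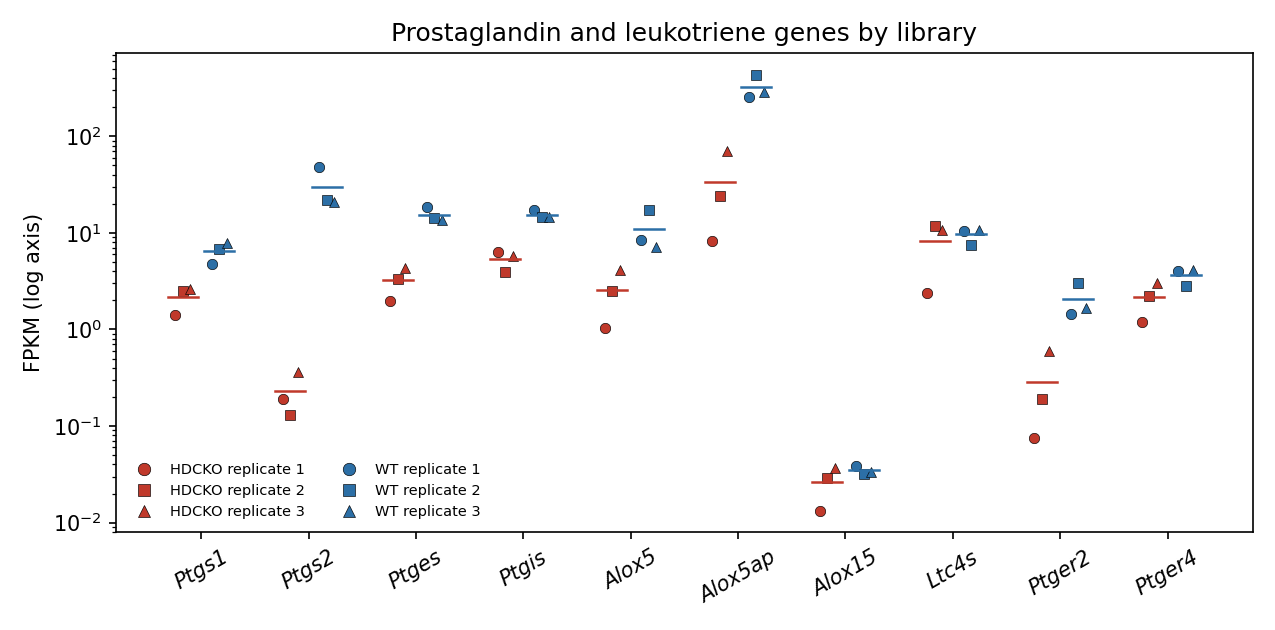
FPKM of the 10 members on a log axis, with HDCKO libraries in red and WT libraries in blue, 1 symbol shape per replicate number and short lines at the group means. Ptgs2 shows the widest gap between groups, from 0.131 to 0.364 FPKM in HDCKO and 21.0 to 47.8 in WT, while the groups overlap for Alox15, Ltc4s and Ptger4.

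Both terminal synthases among the members fell. Ptges, the inducible membrane PGE2 synthase that is often coupled to Ptgs2 (ENSMUSG00000050737, chr2:30779483-30820196, minus strand), had 1.98, 3.34 and 4.38 FPKM in HDCKO and 18.3, 14.2 and 13.7 in WT. All 3 WT libraries were more than 3 times the highest HDCKO library. Ptges fell by 2.13 (SE 0.28, limma adjusted p = 0.00249), which left HDCKO at 21.0% of the WT mean.

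Ptgis makes prostacyclin, a vasodilator and inhibitor of platelets formed by endothelium and smooth muscle (ENSMUSG00000017969, chr2:167033725-167083018, minus strand). It had 6.35, 3.93 and 5.72 FPKM in HDCKO and 17.1, 14.7 and 14.5 in WT, with little spread inside either group. Ptgis fell by 1.47 (SE 0.20, limma adjusted p = 0.00288), to 34.5% of the WT mean. In WT the synthases were close to equal, with a Ptges level 1.07, 0.964 and 0.946 times that of Ptgis. In HDCKO the same ratio was 0.313, 0.849 and 0.765, so the groups did not overlap, but replicate 1 lay apart from the other HDCKO libraries. The difference in the log2 ratio, with 0.5 FPKM added, was -0.66 (exact permutation p = 0.1) and was -0.27 without HDCKO replicate 1. Of 9 markers of mural cells (pericytes and smooth muscle), 2 were called higher and 1 lower, and their summed level was 326 to 388 FPKM in HDCKO and 218 to 301 in WT. Endothelial markers were lower in 6 of 10 cases, with sums of 206 to 310 FPKM in HDCKO and 416 to 617 in WT. Of all genes tested, 42.6% were lower and 17.8% higher. The part of these cells in the Ptgis result was not tested.

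The lipoxygenase branch held the most abundant member. Alox5ap, the membrane protein that hands arachidonic acid to Alox5 (ENSMUSG00000060063, chr5:149196003-149227762, plus strand), had 8.28, 23.9 and 69.6 FPKM in HDCKO and 256, 433 and 289 in WT. The HDCKO libraries spread 8.40-fold, against 1.69-fold in WT, and still lay wholly below them. Alox5ap fell by 3.69 (SE 0.73, limma adjusted p = 0.00882), from 326 ± 94.2 to 33.9 ± 31.9 FPKM (SD, n = 3 each). Leaving out the lowest HDCKO library, replicate 1, gave a log2 change of -2.94, and leaving out the highest, replicate 3, gave -4.44.

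Alox5 itself, which starts leukotriene synthesis (ENSMUSG00000025701, chr6:116387032-116438139, minus strand), had 1.04, 2.50 and 4.10 FPKM in HDCKO and 8.44, 17.1 and 7.20 in WT. WT replicate 2 stood well above the other WT libraries, and the groups did not overlap. Alox5 fell by 1.94 (SE 0.49, limma adjusted p = 0.0173), to 23.3% of the WT mean. This call was lost without HDCKO replicate 2 (log2 change -2.0, limma adjusted p = 0.0546) and without WT replicate 2 (log2 change -1.58, limma adjusted p = 0.0536), and its adjusted p ran from 1.31e-04 to 0.0546 over 15 alternatives. The level of Alox5ap was 30.3, 25.4 and 40.1 times that of Alox5 in WT and 7.98, 9.59 and 17.0 times in HDCKO. The difference in the log2 ratio, with 0.5 FPKM added, was -1.74, with no overlap between groups (exact permutation p = 0.1).

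Ltc4s, the synthase that joins leukotriene A4 to glutathione to give leukotriene C4 (ENSMUSG00000020377, chr11:50127288-50129443, minus strand), did not pass the test. It had 2.36, 11.7 and 10.8 FPKM in HDCKO and 10.6, 7.49 and 10.8 in WT. Only HDCKO replicate 1 was low, and the other HDCKO libraries lay within or above the WT range. The log2 change was -0.45 (SE 0.57, 95% interval -1.84 to 0.94, limma adjusted p = 0.514), and its sign turned without HDCKO replicate 1 (0.23) and under median-of-ratios scaling (0.04), quantile normalization (0.01) and sample weights (0.22). Set against Alox5ap within each library, Ltc4s stood at 0.285, 0.490 and 0.155 in HDCKO and at 0.0413, 0.0173 and 0.0375 in WT. That log2 ratio, with 0.5 FPKM added, was higher in HDCKO by 3.24 (exact permutation p = 0.1), and it ran from 2.85 to 3.68 with each library left out in turn. Mast cells are a known site of Ltc4s expression. Of 7 mast cell markers tested 2 (Kit and Fcer1a) were lower and 0 higher in HDCKO, where 42.6% of all genes were lower. Of these, Fcer1a passed the filter through WT alone. The summed level of 9 mast cell markers was 33.4, 61.9 and 38.9 FPKM in HDCKO and 71.9, 36.3 and 47.8 in WT, so the groups overlapped. The part of mast cells in the Ltc4s result was not tested.

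Alox15, a lipoxygenase of eosinophils and some resident macrophages that makes precursors of lipoxins (ENSMUSG00000018924, chr11:70234970-70242858, minus strand), was near the limit of detection in every library. Its FPKM was 0.0133, 0.0288 and 0.0365 in HDCKO and 0.0389, 0.0317 and 0.0335 in WT. It was below the filter and was not tested, and HDCKO replicate 3 lay inside the WT range. Of the eosinophil markers matched, 0 of 4 passed the filter, and their summed level was 0.0372, 0.177 and 0.540 FPKM in HDCKO and 1.27, 2.47 and 1.18 in WT. The Alox15 level was at most 0.0128 times that of Alox5 in any library. Its log2 ratio to Alox5 differed by 1.92 (exact permutation p = 0.1) on values with 0.5 FPKM added, an amount above every Alox15 value. That difference mirrors the log2 change of -1.94 in Alox5 and carries no information on Alox15.

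**Figure D2:**
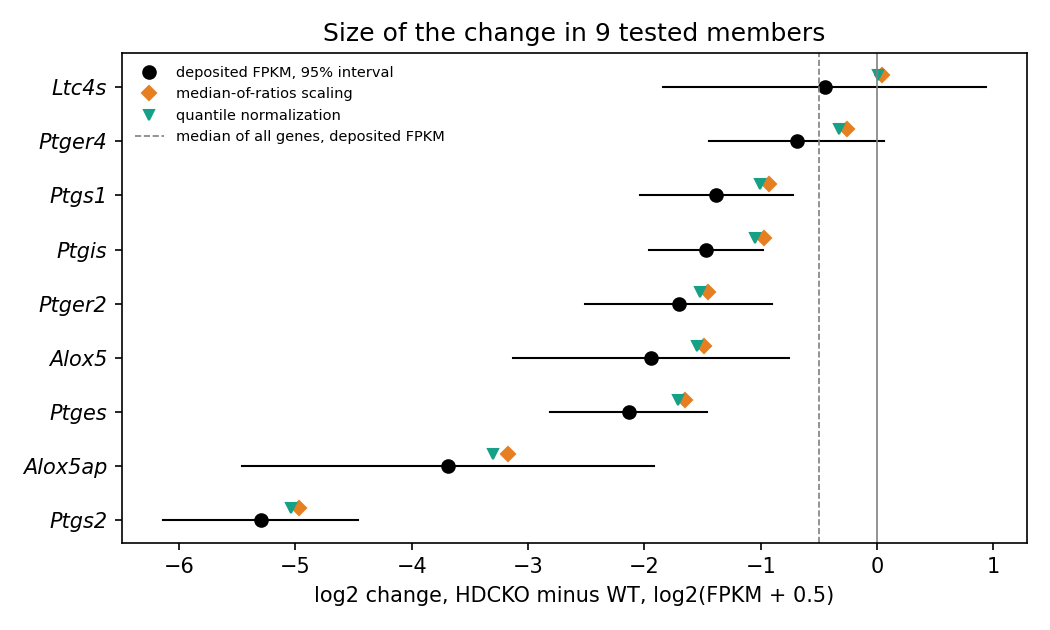
Log2 change of the 9 tested members, HDCKO minus WT, on the deposited values (black, with 95% intervals from limma) and under median-of-ratios scaling (orange) and quantile normalization (green), with the median of all genes as a dashed line. From Ptgs2 at -5.30 to Ptgs1 at -1.38 the intervals exclude 0, while those of Ptger4 and Ltc4s include it.

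Of the PGE2 receptors among the members, Ptger2 fell and Ptger4 did not pass the test. Ptger2, a receptor that raises cyclic AMP (ENSMUSG00000037759, chr14:45225652-45241277, plus strand), had 0.0744, 0.189 and 0.594 FPKM in HDCKO and 1.45, 3.01 and 1.68 in WT. WT replicate 2 was highest and HDCKO replicate 1 lowest, and the groups did not overlap. Ptger2 fell by 1.70 (SE 0.33, limma adjusted p = 0.00851), a change damped by the added 0.5 FPKM, since the HDCKO mean was 14.0% of the WT mean. Like Ptgs2 it passed the filter through its WT level alone, so this p describes the gene and supports nothing further.

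Ptger4, which also couples to cyclic AMP and is broadly found on immune cells (ENSMUSG00000039942, chr15:5236142-5273673, minus strand), had 1.19, 2.22 and 3.04 FPKM in HDCKO and 3.98, 2.79 and 4.14 in WT. HDCKO replicate 3 exceeded WT replicate 2. The log2 change of -0.69 (SE 0.31, 95% interval -1.44 to 0.06) missed the threshold (limma adjusted p = 0.0932), and this test cannot tell a small loss from none. It passed without HDCKO replicate 3 (log2 change -0.93, limma adjusted p = 0.0261) and with sample weights (log2 change -0.65, limma adjusted p = 8.93e-04), and its adjusted p otherwise reached 0.366 over 15 alternatives. Ptger4 overlaps Ttc33 on the opposite strand, a gene of 8.52 to 21.5 FPKM, and whether their exons overlap was not examined. Reads from any shared exon could not be told apart if strand was not used. The ratio of Ptger4 to Ptger2 was 16, 11.7 and 5.12 in HDCKO and 2.74, 0.925 and 2.46 in WT, with no overlap between groups. On values with 0.5 FPKM added, an amount above Ptger2 in HDCKO replicates 1 and 2, the log2 ratio was higher in HDCKO by 1.01 (exact permutation p = 0.1). That difference was 1.84 with 0.1 FPKM added, 0.64 with 1 FPKM added and 0.60 without WT replicate 2.

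**Figure D3:**
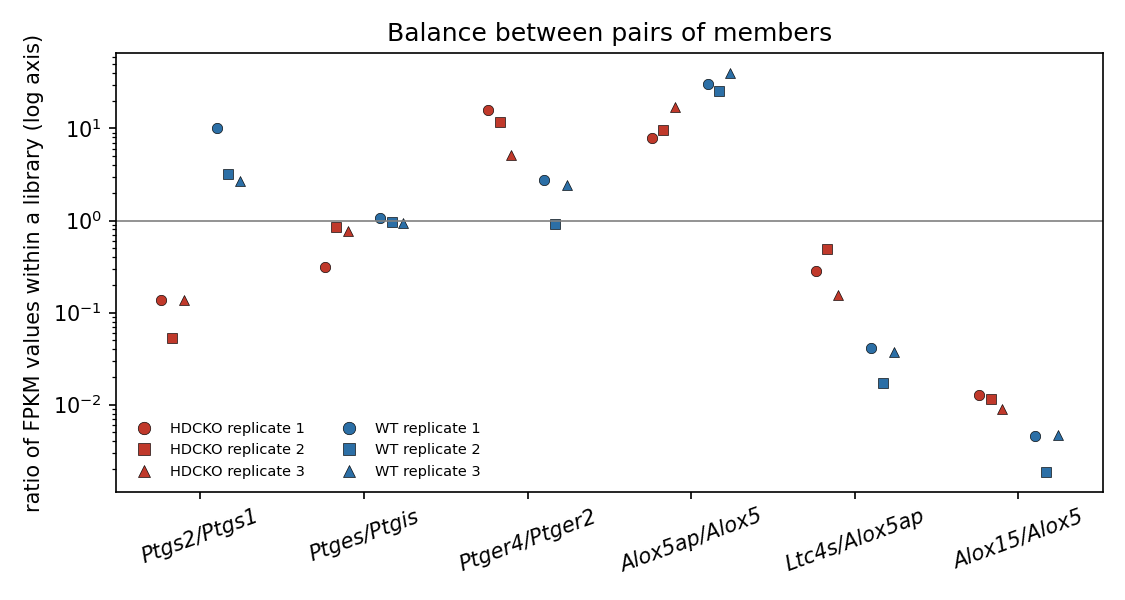
Ratios of FPKM values between pairs of members within each library, on a log axis, with HDCKO in red, WT in blue and a line at 1. The ratio of Ptgs2 to Ptgs1 lies above 1 in the 3 WT libraries and below 1 in the 3 HDCKO libraries, and that of Ltc4s to Alox5ap is 0.155 to 0.490 in HDCKO and 0.0173 to 0.0413 in WT.

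Within HDCKO the libraries ranked alike for most members. HDCKO replicate 1 had the lowest HDCKO value for 8 of the 10 members and HDCKO replicate 3 the highest for 8, the exceptions being Ptgs2 and Ptgis at the low end and Ptgis and Ltc4s at the high end. Macrophage markers showed the same order, with summed levels of 336, 987 and 2314 FPKM in the HDCKO libraries and 3194, 2632 and 3359 in WT. Of these 17 markers 8 were called lower, 0 higher and 9 not called, where 42.6% of all genes were lower. The order was not particular to them: neutrophil, eosinophil, platelet, lymphocyte, endothelial and fibroblast sums shared it. Fibroblast sums were 1595, 1726 and 2364 FPKM in HDCKO and 5406, 2775 and 4809 in WT. Muscle fibre sums (90580, 77120 and 49430 FPKM in HDCKO) and mural sums ran the other way, and mast cell sums followed neither order. Neutrophil markers summed to 41.5, 97.8 and 101 FPKM in HDCKO and to 4622, 15720 and 2927 in WT, and all 17 tested were called lower, where 42.6% of all genes were. Of these, 5 (Ly6g, Fpr1, Trem1, Ngp and Camp) passed the filter through WT alone, so the count is only a description. WT replicate 2, the library with the highest neutrophil sum, also had the highest WT value of Alox5, Alox5ap and Ptger2, the lowest of Alox15, Ltc4s and Ptger4, and the middle value of the other members. Platelet markers summed to 18.7 to 151 FPKM in HDCKO and 820 to 1385 in WT, most of it from Pf4, which macrophages also make. Lymphocyte markers summed to 0.593, 83.1 and 211 FPKM in HDCKO replicates 1, 2 and 3 and to 1.2 to 2.86 in WT, so HDCKO replicates 2 and 3 held transcripts of another cell type that the other libraries nearly lacked. Every list had reads for each of its matched genes in at least 1 library. The part of these cell types in the members' results was not tested.

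**Figure D4:**
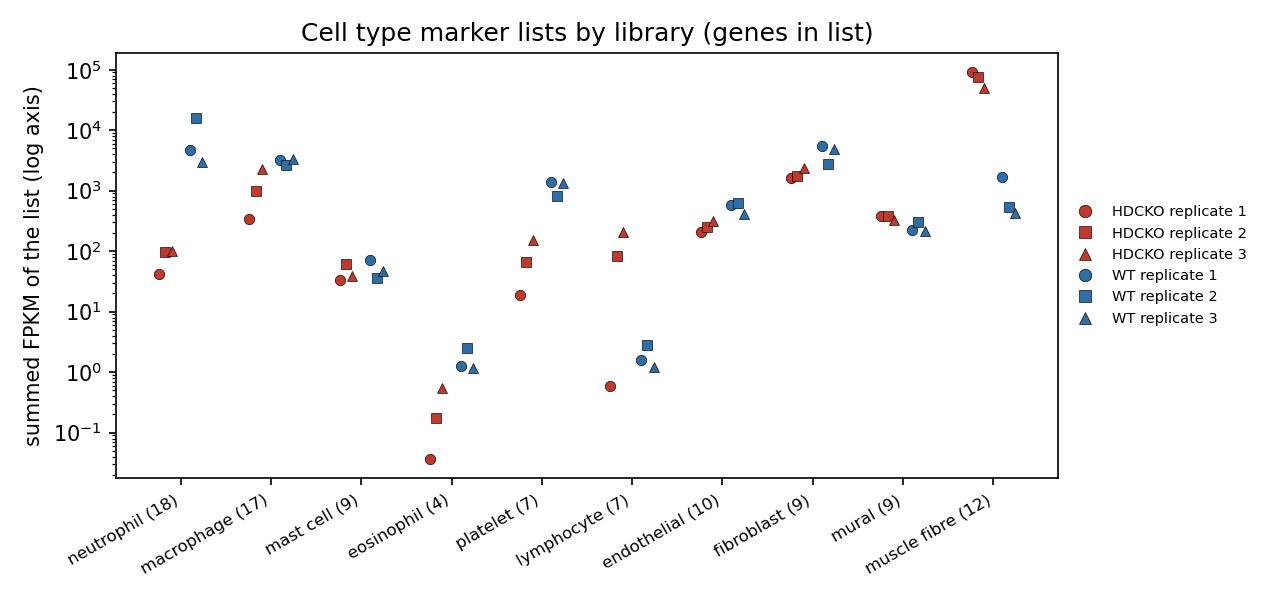
Summed FPKM of each cell type marker list by library on a log axis, with the number of genes in the list in brackets, HDCKO in red and WT in blue. Neutrophil sums do not overlap between groups (41.5 to 101 FPKM in HDCKO, 2927 to 15720 in WT), mast cell sums overlap, and lymphocyte sums are high in HDCKO replicates 2 and 3.

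Other genes whose levels tracked a member over the 6 libraries were found by Pearson's r of log2(FPKM + 0.5). For Ptgs2 the closest were Lrrc32 (0.9996), Apbb2 (0.9992) and the cytokine gene Il6 (0.9992). For Ptgs1 they were Gm41348 (0.9995), Tmem43 (0.9978) and Pafah2 (0.9963), and for Alox5 Ythdc1 (0.9991), Jaml (0.9988) and Ggps1 (0.9986). These values describe 6 libraries in 2 groups that differ in many genes, and the libraries share the same group gap and scaling.

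The rest of the pathway was read from 5 lists of 50 genes, of which 48 were matched (Pla2g10 and Oxgr1 were not) and 33 passed the filter. Of those 33, 15 fell and 8 rose, beside 42.6% of all genes lower and 17.8% higher, with a median log2 change of -0.66. The groups did not overlap for 16 lower and 8 higher, where 51.4% of all genes tested did so lower and 21.2% higher. Their count of higher genes was 5 without HDCKO replicate 2.

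Genes listed for release of arachidonic acid changed in both directions at the RNA level, and release itself was not measured here. Pla2g4a encodes the cytosolic phospholipase A2 that supplies most eicosanoid synthesis, and its levels were 1.17, 2.73 and 4.94 FPKM in HDCKO and 18.1, 22.0 and 18.6 in WT. It fell by 2.70 (SE 0.42, limma adjusted p = 0.0043). Pla2g4e, a paralogue known from skeletal muscle, had 16.1, 12.7 and 8.18 FPKM in HDCKO and 0.0784, 0.0450 and 0.0169 in WT, a log2 change of 4.50 (SE 0.26, limma adjusted p = 2.01e-04). It passed the filter through HDCKO alone, so its place among the genes that rose supports nothing further. Muscle fibre markers were called higher in 12 of 12 cases, where 17.8% of all genes were. Of these 12, Myh2 passed the filter through HDCKO alone, so the count is only a description. The part of muscle fibres in the Pla2g4e level was not tested. Pla2g6 rose by 0.73 (SE 0.13, limma adjusted p = 0.007) and the secreted Pla2g5 fell by 1.41 (SE 0.32, limma adjusted p = 0.0134), a call that was lost under median-of-ratios scaling (log2 change -0.96, limma adjusted p = 0.0797) and quantile normalization (log2 change -1.08, limma adjusted p = 0.0767), the extremes of its alternatives being 2.93e-04 and 0.0797. In all, 3 of 8 tested release genes rose and 2 fell (median log2 change 0.03), where 17.8% of all genes rose and 42.6% fell.

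Among the other terminal synthases 4 of 7 rose and 2 fell (median log2 change 0.45), where 17.8% of all genes rose and 42.6% fell. Ptges2, a PGE2 synthase that is not induced by inflammation, rose by 0.83 (SE 0.17, limma adjusted p = 0.00952), from 9.13 ± 0.507 to 16.8 ± 2.93 FPKM (SD, n = 3 each), opposite to Ptges. The cytosolic PGE2 synthase and chaperone cofactor Ptges3 fell by 1.26 (SE 0.22, limma adjusted p = 0.0065). Prxl2b, which reduces prostaglandin H2 to prostaglandin F2alpha, had 120, 113 and 84.8 FPKM in HDCKO and 24.7, 12.8 and 18.3 in WT, a log2 change of 2.51 (SE 0.27, limma adjusted p = 0.00133). Lta4h, which turns leukotriene A4 into the neutrophil attractant leukotriene B4, fell by 0.86 (SE 0.22, limma adjusted p = 0.0178). That call was lost under median-of-ratios scaling (log2 change -0.34, limma adjusted p = 0.0568), with fibre and mitochondrial genes out of the library sum (log2 change -0.48, limma adjusted p = 0.0606), and without HDCKO replicate 2 or any 1 of the WT libraries (log2 change -0.89 to -0.84, limma adjusted p from 0.0509 to 0.0602). Its lowest adjusted p over the 15 alternatives was 1.58e-05. Of the other lipoxygenases only Alox12 passed the filter, and its log2 change of 0.17 missed the threshold (95% interval -0.66 to 1.0, limma adjusted p = 0.676).

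Of the other eicosanoid receptors, 4 of 6 were called lower and 0 higher (median log2 change -1.79), where 42.6% of all genes were lower and 17.8% higher. The PGE2 receptor Ptger3 and the thromboxane receptor Tbxa2r did not pass the test. Ltb4r1, the leukotriene B4 receptor of neutrophils and other leukocytes, had 0.219, 0.488 and 1.17 FPKM in HDCKO and 30.5, 71.0 and 55.1 in WT. It fell by 5.56 (SE 0.42, limma adjusted p = 4.26e-04), beside 5.30 for Ptgs2. With 0.1 FPKM added in place of 0.5 that order turned, at -6.32 for Ltb4r1 and -6.47 for Ptgs2. The prostacyclin receptor Ptgir fell by 2.44 (SE 0.39, limma adjusted p = 0.00472), as its synthase Ptgis had. Cysltr1, a receptor for the products of Ltc4s, had 0.471, 1.01 and 2.18 FPKM in HDCKO and 5.84, 4.32 and 6.94 in WT and fell by 1.95 (SE 0.39, limma adjusted p = 0.00922). The prostaglandin F receptor Ptgfr fell by 1.64 (SE 0.26, limma adjusted p = 0.00446).

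Genes of breakdown and transport fell in 7 of 11 cases and rose in 1 (median log2 change -1.19), where 42.6% of all genes fell and 17.8% rose. Slco2a1, the carrier that takes prostaglandins into cells for breakdown, had 1.71, 2.98 and 3.01 FPKM in HDCKO and 13.9, 21.3 and 16.7 in WT and fell by 2.55 (SE 0.25, limma adjusted p = 9.84e-04). Abcc1, which exports leukotriene C4, fell by 1.52 (SE 0.20, limma adjusted p = 0.00248). Abcc4, which exports prostaglandins, fell by 0.78 (SE 0.14, limma adjusted p = 0.00646). The Abcc4 call was lost under median-of-ratios scaling (log2 change -0.32, limma adjusted p = 0.104) and quantile normalization (log2 change -0.42, limma adjusted p = 0.0972), with 1.96e-05 the lowest of its alternatives. Cyp4f18, which inactivates leukotriene B4 in neutrophils, had 0.0370, 0.561 and 2.24 FPKM in HDCKO and 18.5, 40.0 and 11.1 in WT and fell by 4.16 (SE 0.70, limma adjusted p = 0.00552). Its log2 change was -4.78 without HDCKO replicate 3.

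**Figure D5:**
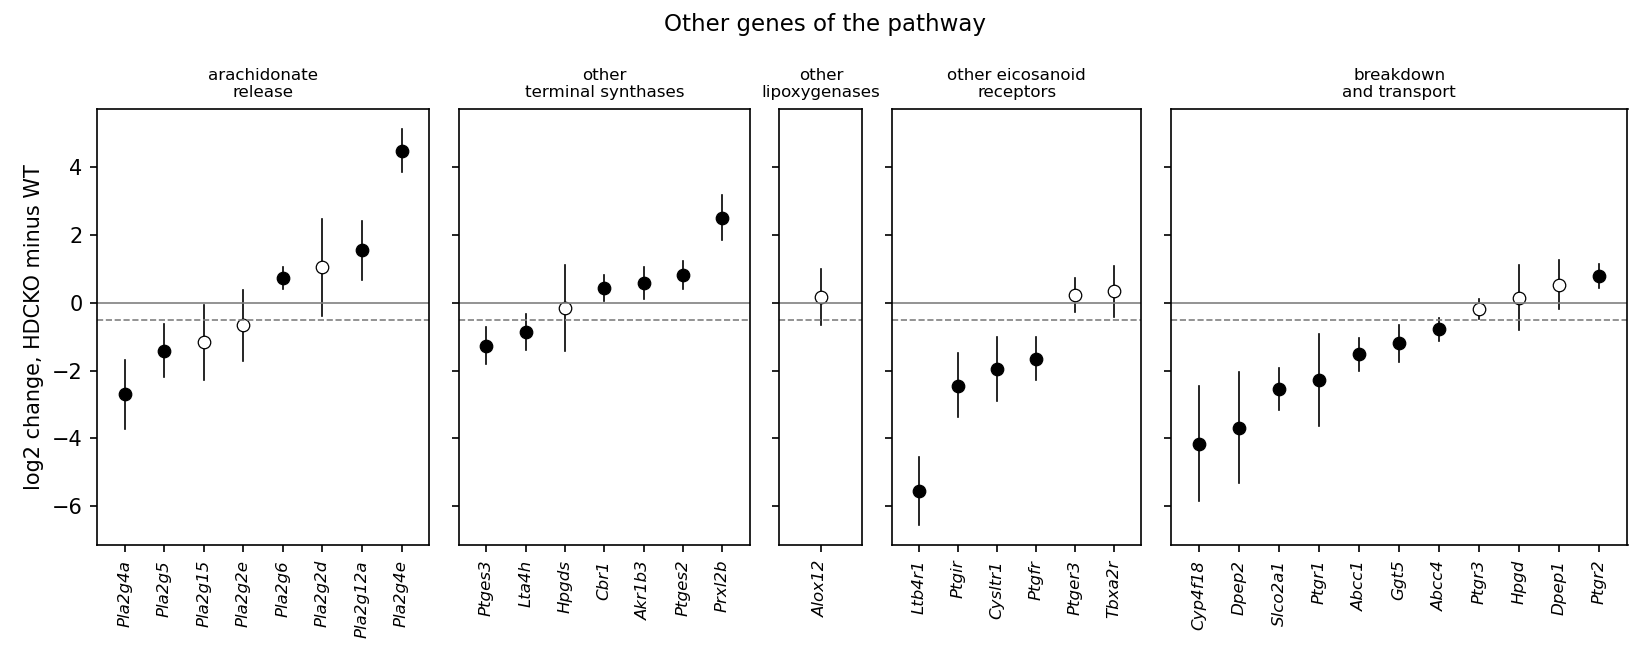
Log2 change (HDCKO minus WT) with 95% intervals from limma for the 33 tested genes of 5 pathway lists, where filled points passed the threshold and open points did not, with lines at 0 and at the median of all genes (dashed). Receptors and breakdown genes lie mostly below 0, from -5.56 for Ltb4r1, while release genes and synthases lie on both sides, up to 4.50 for Pla2g4e.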

How the data were processed

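Per the labels' protocols, total RNA was extracted with TRIzol, and VAHTS Universal V6 libraries were made from it. Per the submitters' processing notes, FastQC 0.11.9, HISAT2 2.1.0, HTSeq 0.11.2, STAR 2.7.11b on GRCm39 and DESeq2 1.22.2 were used. Which aligner gave the values, and whether strand was used: not given in the sources used here. FPKM values, which the authors made from counts per the series' design text, were deposited as 1 column per library.

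Depth was estimated from the step between low FPKM values: in 99.6% of 4151 genes under 0.3 FPKM they were whole multiples within 0.02 fragments. These fragment counts entered no test. Genes averaging 0.5 FPKM or more were tested with limma 3.58.1 (limma-trend, statmod 1.5.0, R 4.3.3) on log2(FPKM + 0.5), HDCKO against WT, two-sided, with Benjamini and Hochberg adjustment over all genes. Ratios of 6 member pairs had exact permutation tests. The fit was tested on simulated data. Gene positions come from GENCODE on GRCm39.

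Named genes were Hdc, the members, up to 4 tested genes with the smallest p of each pathway list, and the 3 tested genes closest to Ptgs1, Ptgs2 and Alox5 by correlation. Members, lists and motifs were chosen with earlier results of these data known. The alternatives were other pseudocounts, filters and scalings, sample weights, a replicate block and each library left out.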

Additional observations from a re-analysis of the deposited data

How the results depend on the processing

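Across 15 alternatives the number of members called lower ran from 6 to 8 and the number called higher was 0 in each. The share of all genes tested that were lower ran from 18.9% (without HDCKO replicate 2) to 62% (sample weights), and 1753 to 3535 genes were higher. The same 7 members were lower under median-of-ratios scaling, quantile normalization and with fibre and mitochondrial genes out of the library sum. There 26%, 30.3% and 25.3% of all genes were lower. Ptgs2 and Ptger2, which passed the filter through WT alone, are in these counts, so the counts are only a description. Of the 26 tested members and named pathway genes, 19 kept direction and call in every alternative. Ltc4s turned sign after median-of-ratios scaling (0.04), after quantile normalization (0.01), with sample weights (0.22) and without HDCKO replicate 1 (0.23), and Alox12 without WT replicate 1 (-0.16). With each library left out in turn Ltc4s ran from -0.82 to 0.23 and Alox12 from -0.16 to 0.47. Of all genes, 3458 were lower after median-of-ratios scaling and 3371 with fibre and mitochondrial genes out of the library sum, against 5658; with each library left out they ran from 2507 to 7288, with 2507 without HDCKO replicate 2 and 2978, 3111 and 2799 without WT replicates 1, 2 and 3. Other pathway genes called higher ran from 5 to 9 with a library left out. With a pseudocount of 0.1 FPKM the log2 change was -6.47 for Ptgs2, -2.65 for Ptger2 and 6.37 for Pla2g4e, and the log2 ratio differences were -4.93 for Ptgs2 to Ptgs1 and 1.84 for Ptger4 to Ptger2. The cause of these shifts was not tested. Whether replicate numbers pair the mice could not be told. Same-numbered libraries had correlations of deviations of 0.122, 0.067 and 0.138. For HDCKO replicates 1 and 3 these were the highest with any WT library, while HDCKO replicate 2 correlated best with WT replicate 1 (0.112). With a replicate block 2081 genes were higher and 5089 lower, and 7 members were lower. At these depths values well under 0.5 FPKM, such as all of Alox15, rest on few fragments.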

Other observations

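Of the other pathway genes, 15 lay below the filter and were not tested. Among them, chosen after their values were seen, the epidermal-type lipoxygenase Aloxe3 had 0.192, 0.238 and 0.0673 FPKM in WT and at most 0.00651 in HDCKO. The prostaglandin D synthase Ptgds had 0.0626, 0.329 and 1.52 FPKM in HDCKO replicates 1, 2 and 3 and 0.0290 to 0.174 in WT. Thromboxane synthase, Tbxas1, had 0.0469, 0.145 and 0.374 FPKM in HDCKO and 0.531, 0.363 and 0.916 in WT, so HDCKO replicate 3 overlapped WT replicate 2.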
